A study of Mus musculus with 12 samples.

Results

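A set of 10 Notch pathway genes is described here across mouse cell lines labelled as female germline stem cells (FGSCs), in which Stella (Dppa3) was removed or added. The genes were the receptors Notch1 and Notch2, the ligands Jag1 and Dll1, the receptor-modifying enzyme Lfng, the target genes Hey1, Hey2, Hes1 and Nrarp, and the pathway regulator Dtx1. They were found by matching their symbols to the RefSeq transcripts of the deposited count table. Each of the 10 genes had 1 listed transcript, so that the set took up 10 of 41388 listed transcripts. The set was put together by pathway role, and it was chosen by levels and changes already measured in these 12 libraries. Its values in the same libraries are therefore given as a description, with no p-value for a member.

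RNA-seq was performed on 4 groups of 3 libraries. KO was a Stella knockout line made with lentiviral CRISPR guides and grown from a single cell clone, and KO-con was its control, for which the sources used here give no further genotype. Over was a line carrying a lentiviral Stella vector and selected with puromycin, and Over-con carried the empty lentiviral vector. All 4 groups were cells of C57BL/6 origin above passage 20, isolated from ovary with beads against the germ cell protein MVH and cultured on inactivated STO feeder cells, a mouse embryonic fibroblast line. KO therefore stands for 1 clone, and a clone's own features and the loss of Stella cannot be told apart. The labels do not say whether the 3 libraries of a group came from separate cultures, so p-values measure only the spread between these libraries, which may be technical.

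Notch receptors are membrane proteins that are cut when a Jagged or Delta-like ligand on a neighbouring cell pulls on them. The freed intracellular part enters the nucleus, joins the DNA-binding protein RBPJ and a Mastermind coactivator, and switches on target genes of the Hes and Hey families. Fringe enzymes such as Lfng add a sugar to the receptor in the Golgi and thereby shift its response between Delta-like and Jagged ligands. In the ovary the pathway is best known for signals between germ cells and the surrounding somatic cells during follicle formation.

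RBPJ binds DNA at sites with the core TGGGAA. The promoter stretches shown are those of Lfng and Hey2, the only members whose windows at hand held this core. Promoter windows (250 bases before to 50 after the gene start, RefSeq, GRCm38.p6) were at hand for 8 of the 10 genes, not for Hey1 and Hes1. The capitals mark the core TGGGAA or its complement TTCCCA. The Lfng stretch lies upstream of the gene start at chr5:140607188-140607283 on the plus strand. The first Hey2 stretch lies upstream at chr10:30842940-30843033 and the second spans the gene start at chr10:30842771-30842800, both on the minus strand.
Lfng, upstream: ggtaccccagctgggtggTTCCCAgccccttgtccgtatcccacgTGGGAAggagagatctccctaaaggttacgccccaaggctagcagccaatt
Hey2, upstream: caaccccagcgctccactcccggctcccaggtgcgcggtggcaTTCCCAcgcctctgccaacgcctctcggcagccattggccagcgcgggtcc
Hey2, gene start: gctgggctgcagcgTGGGAAagaacctcca
Lfng and Hey2 each held 2 copies of the core, counted on both strands. The windows of Notch1, Notch2, Jag1, Dll1, Nrarp and Dtx1 held none. The core is common, being present in 25.6% of all 32851 promoter windows, while the longer form CGTGGGAA, which contains the core, was present in 0.734%. Both Hey2 copies and 1 of the 2 Lfng copies had the longer form. A match describes these letters only and is not evidence of binding.

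The libraries held 5611846 to 12866545 counts, with a median of 10221419. Levels are given as CPM, counts scaled to a common library size with edgeR's TMM factors, and 3 counts, taken as the smallest amount shown, stood for 0.23 to 0.528 CPM. Stella (Dppa3) had 0 counts in every KO, KO-con and Over-con library and 347, 371 and 285 counts in the 3 Over libraries, so that the counts tell Over from the other groups but do not tell KO from its control. The germ cell label could not be settled from the marker list. Of 10 germ cell markers 2 reached a mean of 1 CPM, Ifitm3 and, through the Over libraries, Dppa3. Ddx4, which encodes MVH, had 0 counts in all 12 libraries, but it has 2 listed transcripts, and how reads shared between transcripts were counted is not given in the sources used here. Of the 5 germ cell markers with 1 listed transcript, Prdm1, Sohlh1 and Stra8 did not reach 1 CPM, with 104, 7 and 1 counts over all libraries. Of 10 fibroblast markers 7 reached 1 CPM, with summed levels of 877 to 1268 CPM in KO, 1002 to 1184 for KO-con, 1248 to 1305 for Over and 1409 to 1594 for Over-con, and with Pdgfrb (2 listed transcripts) at 0. Of 9 mast cell markers 4 did, with sums, made almost wholly by Cpa3, of 1148 to 1228 CPM in KO, 371 to 430 for KO-con, 646 to 668 for Over and 759 to 863 for Over-con, and with the defining genes Fcer1a (1 listed transcript) and Ms4a2 (4) at 0. The part of other cell types, feeder cells included, in the values of the Notch genes was not tested, and in bulk RNA fewer cells of a type and less RNA per cell cannot be told apart. Of macrophage, granulosa cell and endothelial markers, 3 of 6, 3 of 8 and 1 of 6 reached 1 CPM, and of 6 T cell markers 0 did. The macrophage sum was made mostly by Cd68, with Adgre1 (3 listed transcripts) and Itgam (2) at 0. The granulosa cell sum was made mostly by Inhba and Hsd17b1, with Foxl2 and Fshr (1 listed transcript each) at 0.

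Of the 10 genes, 6 were measured well enough to compare between groups: Notch1, Notch2, Jag1, Lfng, Hey2 and Hes1 passed the filter on low counts. Dll1, Hey1, Nrarp and Dtx1 did not. All libraries of the 6 measurable genes had counts, from 298 counts over the 12 libraries for Hes1 to 76161 for Notch2.

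**Figure D1:**
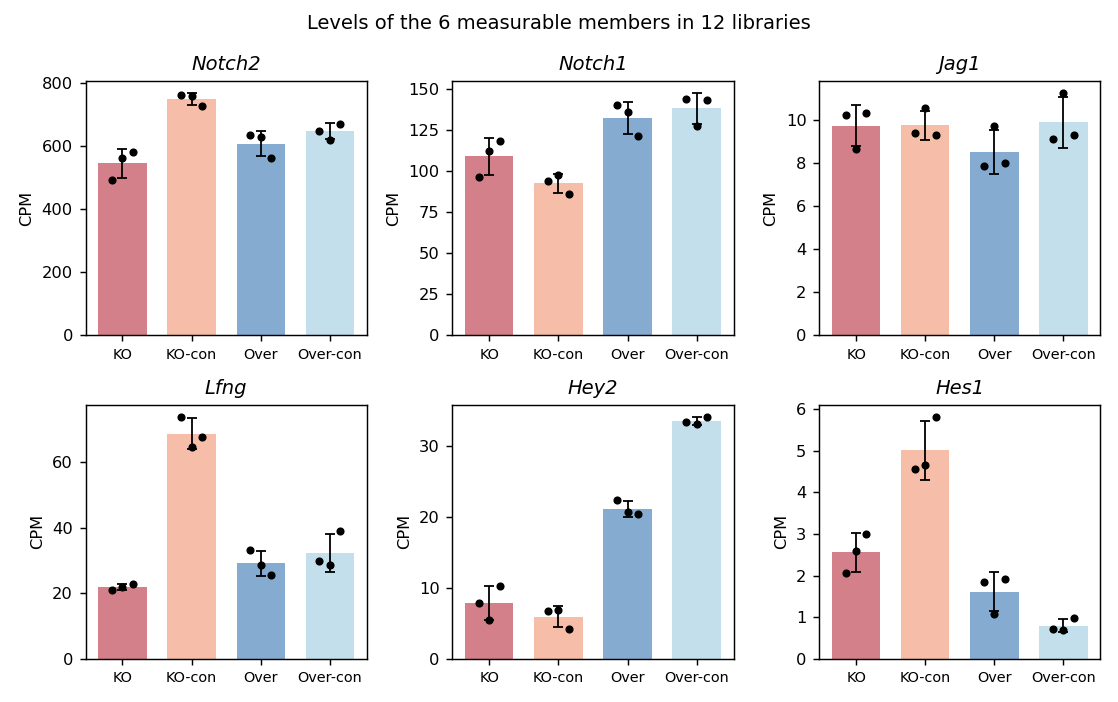
Level of each of the 6 measurable genes in every library (points, CPM, 1 panel per gene) with the mean (coloured bars, from 0) and SD (error bars, n = 3) of KO, KO-con, Over and Over-con. Lfng stood out in KO-con at 64.6 to 73.9 CPM, Hey2 separated the KO and KO-con libraries (4.24 to 10.3 CPM) from the Over and Over-con libraries (20.3 to 34.1 CPM), and Jag1 lay between 7.86 and 11.3 CPM throughout.

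The receptors came first. Notch2 (NM_010928, mm9 chromosome 3, 97817461 to 97954290, plus strand) was measured at 494, 561 and 582 CPM in KO, at 763, 759 and 729 in KO-con, at 635, 628 and 561 in Over and at 650, 621 and 672 in Over-con. KO-con was the highest group, at 750 ± 18.7 CPM (SD, n = 3), and KO the lowest, at 546 ± 46.1 CPM. The 3 KO libraries did not overlap with the 3 KO-con libraries, whereas Over and Over-con overlapped. Notch1 (NM_008714, mm9 chromosome 2, 26313423 to 26372183, minus strand) was measured at 96.5, 112 and 118 CPM in KO, at 93.9, 97.3 and 85.8 in KO-con, at 140, 136 and 121 in Over and at 144, 127 and 143 in Over-con. The Notch1 libraries fell into a lower pair of groups, KO and KO-con, and a higher pair, Over and Over-con, and within each pair the groups overlapped. Its highest group mean, that of Over-con, was 1.49 times its lowest, that of KO-con. The Notch1 locus overlaps 2 annotated genes on the opposite strand (0610009E02Rik and Gm13568), and the strand setting of the counting is not given in the sources used here, so reads over the shared part cannot be told apart.

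Of the ligands, Jag1 was present at a low and even level and Dll1 was not detected above the floor. Jag1 (NM_013822, mm9 chromosome 2, 136907192 to 136942380, minus strand) encodes a Jagged ligand. It was measured at 10.2, 8.67 and 10.3 CPM in KO, at 9.41, 10.6 and 9.33 in KO-con, at 7.86, 9.72 and 8.02 in Over and at 9.12, 11.3 and 9.32 in Over-con. All 4 groups overlapped, and the highest group mean was 1.16 times the lowest, the narrowest range among the 6 measurable genes. Dll1 (NM_007865, mm9 chromosome 17, 15504318 to 15513836, minus strand), a Delta-like ligand, had 2 counts in all, 1 each in Over-con replicates 2 and 3. Its locus overlaps A930024N18Rik on the opposite strand.

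Lfng (NM_008494, mm9 chromosome 5, 141083295 to 141091497, plus strand), the fringe enzyme whose promoter stretch is printed above, was the member that set KO apart from its control most clearly. It was measured at 21.1, 21.9 and 23.0 CPM in KO, at 73.9, 64.6 and 67.6 in KO-con, at 33.1, 28.8 and 25.4 in Over and at 29.7, 28.5 and 39.1 in Over-con. Every KO-con library lay above every library of the other groups, and every KO library lay below every library of the other groups. The KO-con mean of 68.7 ± 4.72 CPM (SD, n = 3) was 3.13 times the KO mean of 22.0 ± 0.949. The Over and Over-con means, 29.1 ± 3.85 and 32.4 ± 5.80 CPM, lay between these, and their libraries overlapped.

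The target genes Hey2 and Hes1 had opposite orders of groups. Hey2 (NM_013904, mm9 chromosome 10, 30552165 to 30562607, minus strand) encodes a transcriptional repressor that Notch signals switch on. It was measured at 7.83, 5.46 and 10.3 CPM in KO, at 6.72, 6.89 and 4.24 in KO-con, at 22.4, 20.6 and 20.3 in Over and at 33.3, 33.1 and 34.1 in Over-con. The KO and KO-con libraries overlapped and all lay below the Over libraries, which in turn all lay below the Over-con libraries. The Over-con mean of 33.5 ± 0.508 CPM was 5.63 times the KO-con mean of 5.95 ± 1.48 (SD, n = 3).

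Hes1 (NM_008235, mm9 chromosome 16, 30064470 to 30067882, plus strand), also a repressor and a widely used readout of Notch signals, was rarer. It had 18, 30 and 33 counts in KO, 44, 52 and 48 for KO-con, 20, 14 and 18 for Over and 7, 4 and 10 for Over-con. In CPM these were 2.07, 2.6 and 3.0 in KO, 4.55, 4.65 and 5.82 for KO-con, 1.85, 1.07 and 1.92 for Over and 0.717, 0.704 and 0.97 for Over-con. The order from high to low was KO-con, KO, Over and Over-con, and no 2 neighbouring groups overlapped. The KO-con mean of 5.01 ± 0.703 CPM was 6.28 times the Over-con mean of 0.797 ± 0.15 (SD, n = 3), the widest ratio of group means among the 6 measurable genes. The Over-con end of this range rests on 21 counts in 3 libraries.

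The other 2 targets and the regulator Dtx1 stayed near the floor. Hey1 (NM_010423, mm9 chromosome 3, 8663362 to 8667039, minus strand), a close relative of Hey2, had 27 counts in all: 1, 2 and 0 in KO, 3, 2 and 1 for KO-con, 2, 1 and 5 for Over and 0, 6 and 4 for Over-con. Nrarp (NM_025980, mm9 chromosome 2, 25036278 to 25038850, plus strand), a target that feeds back to dampen the pathway, had 10 counts in all and at most 2 in a library. Dtx1 (NM_008052, mm9 chromosome 5, 121130211 to 121161936, minus strand), a Deltex ubiquitin ligase that binds the Notch intracellular part, had 70 counts. Its counts were 3, 6 and 3 in KO, 7, 5 and 5 for KO-con, 10, 16 and 8 for Over and 4, 0 and 3 for Over-con. The Over libraries of Dtx1 lay above all others on the CPM scale, at 0.855 to 1.22 CPM against at most 0.724 CPM elsewhere, but Dtx1 did not pass the filter on low counts, and without that filter it was not called. Differences of Dll1, Hey1 and Nrarp between groups were not detectable at this depth.

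**Figure D2:**
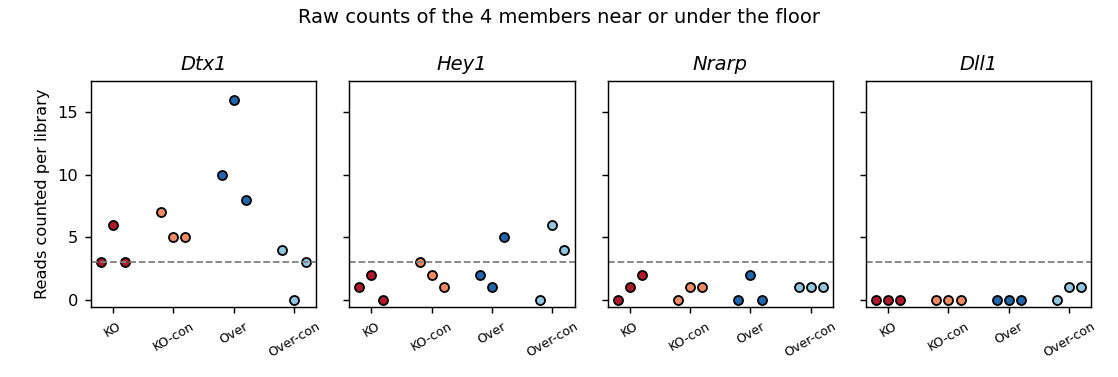
Counts per library of the 4 genes near the floor (Dll1, Hey1, Nrarp and Dtx1) in KO, KO-con, Over and Over-con; each point is a library and the dashed line marks 3 counts. Dll1 and Nrarp never passed the line, Hey1 reached 6 counts in 1 Over-con library, and Dtx1 reached 8 to 16 counts in the Over libraries.

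To compare levels between genes, CPM was divided by the length of the transcript in kilobases. On this scale Notch2 was the highest of the 10 genes in each group, at 52.0 ± 4.39 CPM per kb in KO, 71.4 ± 1.78 for KO-con, 57.9 ± 3.86 for Over and 61.7 ± 2.42 for Over-con (SD, n = 3). Lfng was second in KO-con, at 30.1 ± 2.07 CPM per kb, above Notch1 at 9.73 ± 0.623. In KO, Lfng (9.63 ± 0.416) stood below Notch1 (11.5 ± 1.19), with no overlap between libraries. In Over and Over-con the libraries of Notch1 and Lfng overlapped, at 13.95 ± 1.03 against 12.8 ± 1.69 CPM per kb and at 14.5 ± 0.982 against 14.2 ± 2.54. Hey2 reached 13.1 ± 0.199 CPM per kb in Over-con, where its libraries overlapped with those of Lfng, and only 2.33 ± 0.582 in KO-con, where they overlapped with those of Jag1. Hes1 stood above Hey2 in KO-con only, at 3.41 ± 0.479 CPM per kb, and stood below Jag1 in Over, at 1.10 ± 0.322, and in Over-con, at 0.543 ± 0.102. Jag1 lay between 1.52 and 1.76 CPM per kb in all groups.

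**Figure D3:**
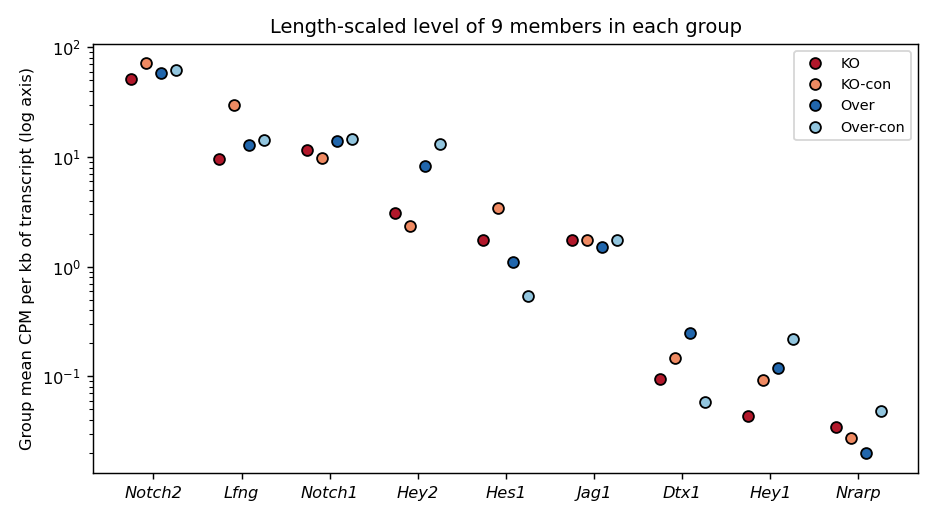
Group mean level per transcript length (points, CPM per kb, log axis) of 9 of the genes in KO, KO-con, Over and Over-con, without error bars; Dll1, at 0 in 3 groups, is left out. Notch2 was highest in every group (52.0 to 71.4 CPM per kb), Lfng moved from 9.63 in KO to 30.1 in KO-con, and Hes1 lay above Hey2 in KO-con only.

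The comparison of KO with KO-con was designed around the loss of Stella, although Stella had 0 counts in both groups. Lfng was lower in KO, with a log2 fold change of -1.63 (SE 0.0945), as were Notch2 at -0.45 (SE 0.0753) and Hes1 at -0.94 (SE 0.239). Notch1 at 0.25 (SE 0.0877), Hey2 at 0.39 (SE 0.239) and Jag1 at -0.0019 (SE 0.154) had overlapping libraries. An adjusted p under 0.05 in edgeR's quasi-likelihood test, called here a call, was reached by 3 of the 6 measurable genes, where 11.8% of the 9457 transcripts tested were called. Only Lfng also passed an absolute log2 fold change of 1, as 1.70% of transcripts did. The groups did not overlap for 3 of the 6 genes, against 30.5% of transcripts. Nothing is read from these counts, nor from the counts of members in the comparisons that follow, since the members were chosen with all of these contrasts known. Without KO replicate 2 or KO-con replicate 3 the call for Hes1 was lost, at log2 fold changes of -0.94 and -0.82. Every KO library had lower levels of Lfng, Notch2 and Hes1 than every KO-con library. Every KO library also had higher sums of the mast cell markers, of the macrophage markers (44.7 to 55.2 against 33.9 to 41.4 CPM) and of the granulosa cell markers (41.8 to 45.5 against 36.6 to 39.0 CPM). These sums were made mostly by Cpa3, by Cd68, and by Inhba with Hsd17b1, and do not describe the lists as a whole.

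The comparison of Over with Over-con was designed around the gain of Stella, which was counted in Over only. Hey2 was lower in Over, with a log2 fold change of -0.66 (SE 0.0959), and its libraries did not overlap. Hes1 was the other gene whose libraries did not overlap, with 0.96 (SE 0.398) on counts of 4 to 20 per library, and it was not called. Notch1 at -0.06 (SE 0.0746), Notch2 at -0.08 (SE 0.0645), Lfng at -0.16 (SE 0.127) and Jag1 at -0.18 (SE 0.16) had overlapping libraries. The call was thus made for 1 of the 6 genes, against 1.65% of 9401 transcripts, and no member passed a log2 fold change of 1 as well, as 0.170% of transcripts did. The groups did not overlap for 2 of the 6 genes, against 19.3% of transcripts. Every Over library had lower fibroblast and mast cell marker sums than every Over-con library. Its macrophage marker sum, made mostly by Cd68, was higher (49.6 to 50.8 against 34.7 to 40.5 CPM). The mast cell sum was made almost wholly by Cpa3 and the fibroblast sum mostly by Col1a1, Col1a2 and Col3a1. These sums do not describe their lists as a whole.

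The control lines KO-con and Over-con, neither of which had a count of Stella, were also set against each other. Hes1 was higher in KO-con by a log2 fold change of 2.60 (SE 0.318), Lfng by 1.07 (SE 0.111) and Notch2 by 0.22 (SE 0.0682). Hey2 was lower in KO-con, with -2.46 (SE 0.151), as was Notch1 with -0.57 (SE 0.0815). Jag1 stood at 0.01 (SE 0.161). Calls were made for 5 of the 6 genes, against 16.3% of 9321 transcripts, and 3 of them (Hes1, Hey2 and Lfng) passed a log2 fold change of 1, against 2.16%. Libraries did not overlap for 5 of the 6 genes, against 32.1% of transcripts. The choice of control changed the sign of Hes1, Hey2 and Notch1 in both lines. Of these changes against the own control, only those of Hes1 in KO and Hey2 in Over had been called. Set against Over-con, KO had log2 fold changes of 1.65 for Hes1, -2.09 for Hey2 and -0.34 for Notch1, and Lfng stood at -0.57. Set against KO-con, Over had -1.65 for Hes1, 1.80 for Hey2 and 0.52 for Notch1, and Lfng stood at -1.23. The mast cell, fibroblast and germ cell marker sums were lower in every KO-con library than in every Over-con library, at 113 to 138 against 151 to 165 CPM for the germ cell list. In these groups the germ cell sum was made almost wholly by Ifitm3 and the mast cell sum by Cpa3. The fibroblast sum was made mostly by Col1a1, Col1a2 and Col3a1. These sums do not describe their lists as a whole. The call for Notch2 was lost without KO-con replicate 1, 2 or 3 or Over-con replicate 1 or 2, at 0.19 to 0.24.

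The changes of the engineered lines, each against its own control, were then compared in 1 fit of all 12 libraries. The log2 fold change in KO minus that in Over was -1.90 for Hes1 (SE 0.44), -1.48 for Lfng (SE 0.166), -0.37 for Notch2 (SE 0.0989) and 1.04 for Hey2 (SE 0.251). As a description, these 4 of 6 genes were past the threshold, as were 8.64% of 9903 transcripts, and Hes1, Lfng and Hey2 also passed a difference of 1, as did 1.90%. Notch1 stood at 0.30 (SE 0.119) and Jag1 at 0.18 (SE 0.211). The call for Notch2 was lost without replicate 1 or 2 of KO-con, Over or Over-con, and its value over all 12 fits that left out a library was -0.44 to -0.32.

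**Figure D4:**
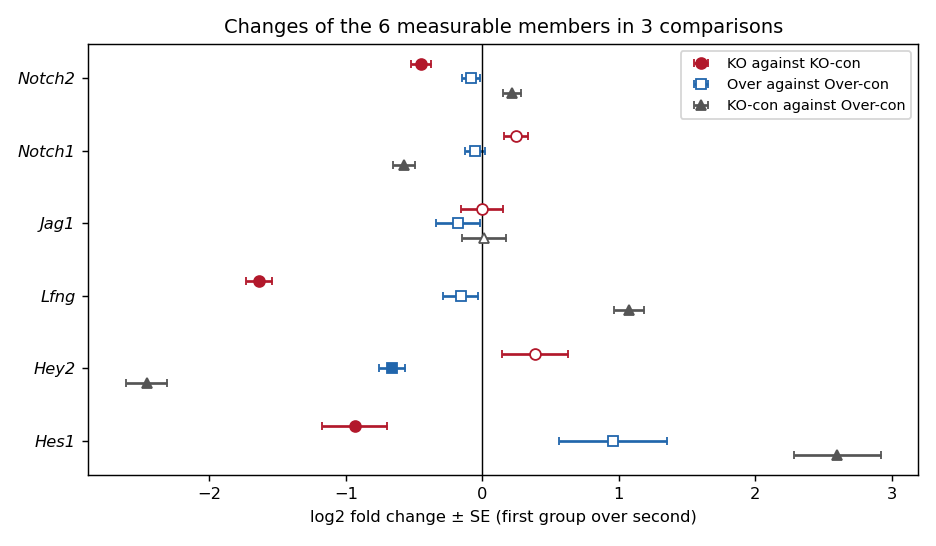
Log2 fold change with its SE (bars) of the 6 measurable genes for KO against KO-con (circles), Over against Over-con (squares) and KO-con against Over-con (triangles); filled symbols were called at an adjusted p under 0.05. The values furthest from 0 were those of the 2 control lines against each other, 2.60 for Hes1 and -2.46 for Hey2, and in KO the value furthest from 0 was that of Lfng at -1.63.

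Other genes of the pathway were followed with lists sorted by role, 73 genes with 160 listed transcripts. The lists were written with earlier results of these data known, and the adjusted p-values of their genes carry that limit. Of these, 39 genes passed the filter with 41 transcripts. Of the 34 genes that did not pass, 27 had 2 or more listed transcripts, among them Rbpj with 5, so the same limit applies to them as to Ddx4. The low counts of these 27 genes are therefore not read as low expression. The rest had 1 listed transcript and few counts over all libraries. They were the ligands Dll3 (14 counts) and Dll4 (22) and the targets Hes3 (10), Hes5 (5), Hes7 (43), Heyl (3) and Ptcra (19). Among genes that passed the filter, the highest of each list in mean CPM over all libraries, not scaled by length, was named. These were the receptor Notch3 (120), the fringe enzyme Mfng (132), the ligand-activating ubiquitin ligase Mib1 (169) and the receptor-cutting protease Adam10 (313). The others were the coactivator Ep300 (469), the corepressor partner Kdm5a (278), the ubiquitin ligase Nedd4 (198) and the cell cycle gene Ccnd1 (294). Per kb of transcript the order changed in some lists. Jag2 (19.0 CPM per kb) stood above Notch3 (14.9), Ncstn (77.2) above Adam10 (68.2) and Snw1 (79.9) above Ep300 (53.6). Hdac1 (58.9) stood above Kdm5a (25.35) and Dtx3 (80.4) above Nedd4 (37.4).

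In KO, 9 of the 41 transcripts were called, 5 higher and 4 lower, against 11.8% of all transcripts. An unadjusted p under 0.05 in edgeR's quasi-likelihood test was reached by 15 of the 41, beside 2402 of all 9457 transcripts tested. The median log2 fold change of the 41 was 0.03, beside 0.01 over all transcripts tested. Il2ra, the alpha chain of the interleukin-2 receptor and a known Notch target in lymphocytes, fell most, from 305, 365 and 265 CPM in KO-con to 132, 110 and 154 CPM in KO. The 2 groups did not overlap, and the log2 fold change was -1.23 (SE 0.119, adjusted p = 5.428e-06 in edgeR's quasi-likelihood test). Aph1b, a subunit of the gamma-secretase that cuts the receptor, rose from 13.2 ± 0.958 to 23.2 ± 1.73 CPM (log2 fold change 0.82, adjusted p = 0.0004343). Its counts are uncertain, since the near-identical neighbour Aph1c could share its reads. Aph1c stood at a log2 fold change of 0.51 (adjusted p = 0.07095). Dtx4, a relative of Dtx1, rose from 109 ± 3.19 to 150 ± 6.19 CPM (0.46, adjusted p = 0.0004938).

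The other called genes moved less. In the nuclear activation complex 3 of 6 transcripts were called: the coactivators Crebbp and Maml3 fell by 0.37 and 0.32 on the log2 scale (adjusted p = 0.006272 and 0.01633), and Snw1 rose by 0.27 (adjusted p = 0.01417). Mfng, the relative of Lfng, fell by 0.35 (adjusted p = 0.0141), from 164 ± 12.2 to 129 ± 13.1 CPM. It was the only 1 of 5 glycosylation genes called. The corepressor Cir1 and the ubiquitin ligase subunit Fbxw7, which marks the Notch intracellular part for breakdown, rose by 0.33 and 0.46 (adjusted p = 0.02521 and 0.03313). None of the 3 other receptor and ligand transcripts was called: Notch3 stood at 0.17 (adjusted p = 0.2303), Jag2 at -0.21 (adjusted p = 0.1141) and Notch4 at -0.28 (adjusted p = 0.8101). Leaving out each library in turn kept the calls for Il2ra, Aph1b and Dtx4 and ended each of the other 6 at least once. Set against Over-con, Il2ra (-1.03, adjusted p = 4.678e-05 in edgeR) and Aph1b (0.66, adjusted p = 0.007698) were called in the same direction. Aph1c, not called against KO-con, was called higher in this edgeR test (0.73, adjusted p = 0.01806). Maml3, by contrast, was called higher (0.53, adjusted p = 0.0005988), and Dtx4 (-0.19) and Mfng (0.22) stood on the other side of 0 without a call. The count of 9 became 3 without KO-con replicate 1, 5 without KO-con replicate 2 and 14 without KO replicate 3.

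**Figure D5:**
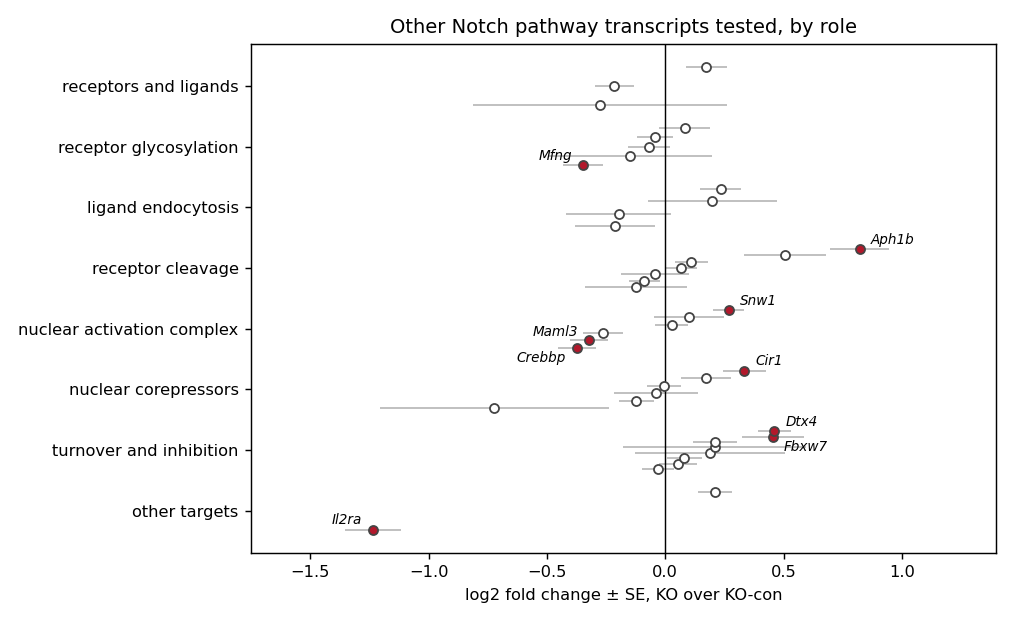
Log2 fold change (KO over KO-con) with its SE for each of the 41 other Notch pathway transcripts tested, sorted by role; filled points were called at an adjusted p under 0.05 and carry the gene's name. Il2ra at -1.23 and Aph1b at 0.82 lay furthest from 0 among the called genes, and none of the 3 other receptors and ligands was called.

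In Over, 0 of the 41 transcripts were called by edgeR's quasi-likelihood test and 0 by DESeq2, against 1.65% of all transcripts. An unadjusted p under 0.05 in the edgeR test was reached by 5 of the 41, beside 1222 of all 9401 transcripts tested. The median log2 fold change of the 41 was 0.01. The count of calls became 4 without Over-con replicate 3, and the count of calls over all transcripts became 719 in place of 155. Between the control lines, 7 of 40 transcripts were called, against 16.3% of all. Maml3 was higher in KO-con (0.87, adjusted p = 2.952e-07), as were Mfng (0.58, adjusted p = 7.026e-05), the O-fucosyltransferase Pofut1 (0.28, adjusted p = 0.02243) and Crebbp (0.25, adjusted p = 0.03824). Dtx4 was lower (-0.64, adjusted p = 3.616e-06), as were a transcript of the corepressor Ncor1 (-0.36, adjusted p = 0.01332) and Fbxw7 (-0.41, adjusted p = 0.03973). The count became 3 without KO-con replicate 1 and 4 without Over-con replicate 2.

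The changes in KO and Over differed for 7 of the 41 transcripts, against 8.64% of all. The difference was -1.13 for Il2ra (adjusted p = 8.368e-05), 0.58 for Dtx4 (adjusted p = 0.0004289), -0.51 for Maml3 (adjusted p = 0.005104), -0.54 for Mfng (adjusted p = 0.008541), 0.36 for Ccnd1 (adjusted p = 0.02366), -0.40 for Crebbp (adjusted p = 0.02446) and 0.57 for Aph1b (adjusted p = 0.03911). The call for Aph1b was lost in DESeq2, without a filter beyond 1 count and with the replicate block, and in 8 of the 12 fits that left out a library. The count became 4 without KO-con replicate 2 or Over replicate 1.

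Transcripts with a pattern like that of Lfng, Hes1 and Hey2 were then looked for over the 12 libraries, by the root mean square difference of their log2 CPM after each was centred on its own mean. For Lfng the nearest were the peptide transporter gene Slc15a3 (0.25), NM_009251, for which no symbol was matched (0.29), and the cytokine gene Lif (0.29), where the median over all tested transcripts was 0.66. Lif stood at 2.35 CPM in KO, 6.32 for KO-con, 2.62 for Over and 3.68 for Over-con. For Hes1 the nearest were Hhip, which encodes a Hedgehog-binding protein (0.31), the aldo-keto reductase gene Akr1c13 (0.33) and D430019H16Rik (0.40), with a median of 0.93 over all. Hhip stood at 28.8, 50.6, 21.5 and 12.5 CPM in the same order of groups. For Hey2 they were the immune receptor gene Cd244a, the growth factor gene Fgf9 (0.38 each) and Pfpl (0.39), with a median of 1.07 over all. Fgf9 stood at 0.478, 0.652, 2.30 and 2.78 CPM. These are descriptions of likeness over 4 groups of 3 libraries and carry no test.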

How the data were processed

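RNA-seq had been performed on 12 libraries of 4 groups. After trimming, reads had been mapped by the authors to the mm9 genome (HISAT2, default settings), and raw read counts per RefSeq transcript were deposited. The submitters' processing notes also name DESeq2. The annotation release, the strand setting and the handling of reads shared between transcripts are not given in the sources used here. Columns were matched to samples by title. Symbols for 41186 of 41388 transcripts were taken from RefSeq (GRCm38.p6), and loci and lengths (longest coding transcript) from Gencode on mm9.

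The members and lists were chosen with earlier results of these data known. Transcripts were filtered with filterByExpr (at least 10 counts, 15 in all) and tested in edgeR 4.0.16 (R 4.3.3) with TMM scaling, the quasi-likelihood test and Benjamini-Hochberg adjustment over all transcripts tested. Each pair of groups was fitted on its own 6 libraries, and the difference between effects on all 12. DESeq2 1.42.0, other scalings and filters, a replicate block, counts summed per gene and the other control group were alternatives, as was leaving out each library. The procedure was tested on simulated data. Named were all members and pathway genes called with an absolute log2 fold change over 1. Up to 3 per list and comparison with the lowest adjusted p were also named. So were the gene of each list highest in CPM, any gene above it per kb, and genes with 1 listed transcript that did not pass the filter. The 3-count floor covers counting error only. Replicates differed by more than sampling noise (chi-square per degree of freedom 1.93 to 12.3). Protein sequences were not used here.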

Additional observations from a re-analysis of the deposited data

Results flagged for a closer look

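The change in KO against KO-con and the change in Over against Over-con differed by a test of the difference itself for 7 other pathway genes, each given as the log2 fold change in KO minus that in Over. The difference was -1.13 for Il2ra, 0.58 for Dtx4, 0.57 for Aph1b, -0.54 for Mfng, -0.51 for Maml3, -0.40 for Crebbp and 0.36 for Ccnd1, all with an adjusted p under 0.05 in edgeR's quasi-likelihood test, although the call for Aph1b was lost in DESeq2. The lists of other pathway genes were written with earlier results of these data known, and these adjusted p-values carry that limit. For 4 members the same difference stood out, but the members were chosen with these contrasts known, so their values are a description and support nothing. They were -1.90 for Hes1, -1.48 for Lfng, -0.37 for Notch2 and 1.04 for Hey2.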

How the results depend on the processing

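Of 375 log2 fold changes recomputed under the alternatives, 363 moved by less than 1 SD between replicates. Leaving out a library gave 180 of the 375. Dropping 1 of 3 libraries moves a group mean by less than the SD of that group. In a comparison of a pair of groups these values could therefore hardly move further. Summing counts per gene left the members' own counts unchanged, since each had 1 listed transcript. The count of 363 is for these reasons not read as a measure of robustness. Most values that moved further came from the other control group, where only Jag1 stayed within 1 SD in KO and in Over. With the other control group 3 members changed sign in both lines: in KO, Hes1 stood at 1.65, Hey2 at -2.09 and Notch1 at -0.34, and in Over, Hes1 stood at -1.65, Hey2 at 1.80 and Notch1 at 0.52. In KO the members called were then Notch1, Lfng (-0.57), Hey2 and Hes1, with the call for Notch2 lost at -0.25, and 4 other pathway genes were called (9 with its own control), with Maml3 called in the opposite direction at 0.53. In Over 5 members (1), Lfng among them at -1.23, and 12 other pathway genes (0) were called. Over all transcripts that setting gave 737 calls in KO in place of 1115 and 2026 in Over in place of 155. Without a filter beyond 1 count there were 302 calls in Over. With library totals the share of calls that were higher was 61% in KO in place of 49.4% and 35.5% in KO-con against Over-con in place of 49.7%, Notch1 was also called in KO, and the call for Notch2 between the control lines was lost at 0.17. Hes1 could not be tested with at least 10 counts in every library, except in KO against KO-con.

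Leaving out each library in turn gave 2 to 4 members called in KO, 1 to 1 in Over, 4 to 5 between the control lines and 3 to 5 for the difference between effects. For the other pathway genes it gave 3 to 14, 0 to 4, 3 to 9 and 4 to 10. Notch1 was called in KO without KO replicate 1, and the difference for Lfng became -1.64 without Over-con replicate 3. In KO the call was lost for Crebbp without KO-con replicate 1, for Snw1 without KO-con replicate 1 or 2, for Mfng and Maml3 without those or KO replicate 2, for Cir1 without KO replicate 1 or KO-con replicate 1 or 3, and for Fbxw7 without KO replicate 1 or any KO-con library. Between the control lines calls were lost for Ncor1, Pofut1, Crebbp and Fbxw7, and in the difference for Ccnd1, Crebbp and Aph1b, the last also in DESeq2, without a filter beyond 1 count and with the replicate block. Between the control lines the calls for Pofut1 and Crebbp were also lost with library totals and that for Fbxw7 in DESeq2.

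Libraries share replicate numbers across groups, but same-numbered libraries did not deviate together (correlations of -0.113, -0.0714 and -0.0621 in KO and KO-con and of -0.16 to -0.0286 in Over and Over-con), so the numbers were not taken as pairs. With the replicate block, calls over all transcripts were 837 in KO and 67 in Over, the members called were 3, 1, 5 and 4 in the 4 comparisons as without it, and the other pathway genes called were 6, 0, 8 and 6, with Cir1, Fbxw7 and Snw1 not called in KO. The causes of these differences were not tested. Depth limits Dll1, Hey1, Nrarp and Dtx1, and in Over-con Hes1.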
